A study of Homo sapiens with 3 samples.

Results

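The 10 genes described here encode proteins that bind APC or hold microtubules at the cell cortex. They are the end-binding genes *MAPRE1*, *MAPRE2* and *MAPRE3*, the rescue factors *CLASP1* and *CLASP2*, the cortical anchors *PHLDB1* and *PHLDB2*, the scaffolds *DLG1* and *IQGAP1*, and the exchange factor *ARHGEF4*. They were taken by symbol from a table of 23131 genes, and all 10 have a row. The cells were HCT-116, a colon carcinoma line that is wild-type for *APC* and carries the stabilizing deletion CTNNB1ΔSer45. The series has 3 libraries, 1 each for cells given a pool of anti-*APC* siRNA, cells given a pool of scrambled siRNA and cells given no siRNA. All were handled in 2 transfections on consecutive days and harvested 48 hours after the second. The labels call the control without siRNA untransfected in its title and treated with reagent only (mock) elsewhere. The deposited table sets the anti-*APC* library against the untransfected one. The third library, with scrambled siRNA, was not analysed here. The ratios below therefore do not by themselves separate *APC* loss from siRNA delivery.

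APC does more than mark β-catenin for degradation. Its C-terminal region binds microtubules, the end-binding protein EB1 and the PDZ domains of DLG1, and its armadillo repeats bind IQGAP1 and the exchange factor ASEF. Through these contacts APC collects at the growing ends of microtubules near the leading edge of migrating epithelial cells. CLASP proteins ride on the same ends through EB1 and are caught at the basal cortex by the LL5 proteins, which *PHLDB1* and *PHLDB2* encode. The comparison asked whether transcripts of these partners differ when *APC* transcript is lowered.

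Levels are given as FPKM, a read density per length of transcript and per depth of library, so levels of different genes can be compared. Ratios are anti-*APC* siRNA over untransfected, with no pseudocount. Each condition has 1 library, so differences lack a replicate check and no p-value is given. A 1.5-fold difference with a mean of at least 1 FPKM is used as a fixed limit of size. Fewer cells of a type and less RNA per cell cannot be told apart in such bulk samples. Low values stepped in whole reads. Of 1659 genes under 0.1 FPKM, 329 shared a log2 ratio of 0.13 within 0.01, the ratio of 1 read to 1 read, and transcript lengths place the depth near 24900000 reads in the untransfected and 22700000 reads in the anti-*APC* library. From that depth each gene's approximate reads and a 95% counting interval of its ratio were computed. The interval covers counting error only, so it is narrower than the spread between cultures would be.

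The libraries were those of epithelial cells in both conditions. The summed level of 7 epithelial markers was 1649 FPKM in untransfected and 1294 FPKM in anti-*APC* cells, although the villin gene *VIL1* was at 0 and 0.0313 FPKM. Summed leukocyte markers stayed at or below 0.224 FPKM and endothelial markers at or below 0.0725 FPKM, and 1 fibroblast marker, *COL1A1*, was at 2.85 and 3.08 FPKM. All 6 expressed epithelial markers had ratios below 1, among them *CDH1* (E-cadherin) at 0.636, and over all genes 7073 of 12063 did. With the trend of ratios on transcript GC content subtracted, the ratio of *CDX2* went from 0.923 to 1.04 and the markers' median log2 ratio from -0.35 to -0.20. Their part in the values of the cortical genes was not tested. *APC* itself had 9.15 FPKM without siRNA and 3.43 FPKM with it, or 0.375 of its level, a log2 ratio of -1.41 (counting interval -1.53 to -1.30).

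*PHLDB2* and *PHLDB1* are shown by the sequence before their start sites, because *PHLDB2* had the highest ratio of the members and shares its locus with another gene, and *PHLDB1* is its paralog. *MAPRE1* is added as the most abundant member. The RefSeq table, made on GRCh38.p14, gives 23 windows for the 10 members, each of 250 bases before and 50 bases after a start, and all 23 were found unchanged on GRCh37. The 250 bases before the start are printed, 5′ to 3′ on the strand of the gene. Capitals mark letters searched on both strands. For TCF factors these were ATCAAAG and its variants, the first being TTCAAAG, with AACAAAG as the next and TACAAAG as the last. For AP-1 they were TGACTCA and the same site read on the other strand, TGAGTCA.
PHLDB2, first start (chr3:111451093-111451342, + strand): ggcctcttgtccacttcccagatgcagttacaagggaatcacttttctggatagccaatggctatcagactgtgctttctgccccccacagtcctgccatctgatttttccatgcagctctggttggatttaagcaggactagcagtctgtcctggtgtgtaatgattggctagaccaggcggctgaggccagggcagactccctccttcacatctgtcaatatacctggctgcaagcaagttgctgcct
PHLDB2, second start (chr3:111577777-111578026, + strand): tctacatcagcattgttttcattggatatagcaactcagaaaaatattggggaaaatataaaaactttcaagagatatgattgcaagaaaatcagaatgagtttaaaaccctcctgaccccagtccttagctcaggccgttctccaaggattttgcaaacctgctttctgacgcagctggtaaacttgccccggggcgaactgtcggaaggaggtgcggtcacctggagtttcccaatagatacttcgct
PHLDB1, second start (chr11:118478080-118478329, + strand): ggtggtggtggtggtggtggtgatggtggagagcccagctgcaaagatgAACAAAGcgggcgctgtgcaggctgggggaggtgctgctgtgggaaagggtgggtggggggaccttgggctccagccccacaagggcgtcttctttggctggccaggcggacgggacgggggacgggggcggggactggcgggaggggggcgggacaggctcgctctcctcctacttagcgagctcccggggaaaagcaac
MAPRE1 (chr20:31407510-31407759, + strand): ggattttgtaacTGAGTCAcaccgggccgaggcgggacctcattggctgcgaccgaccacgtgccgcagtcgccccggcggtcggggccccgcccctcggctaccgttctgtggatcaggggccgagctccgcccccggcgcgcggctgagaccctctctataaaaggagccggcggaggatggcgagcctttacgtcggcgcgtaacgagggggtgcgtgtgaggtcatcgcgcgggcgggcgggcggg

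None of the 4 *PHLDB2* windows holds either set of letters, which says nothing on sites elsewhere in the gene. *PHLDB1* has TCF letters 201 bases and *MAPRE1* has AP-1 letters 238 bases before the start. TCF letters also occur in 1 window each of *MAPRE2*, *CLASP2* and *DLG1*, and AP-1 letters in 1 window of *MAPRE3*, 38 bases after its second start. In all, 4 of the 23 windows (17.4%) hold TCF letters, against 13.8% of the 35116 windows of all genes. For AP-1 letters the count is 2 of 23 (8.70%), against 4.95%. These matches are descriptions of sequence, and no binding was measured in these files.

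The 10 members covered a wide range of levels in HCT-116 cells, and all passed the limit of 1 FPKM. In untransfected cells the order ran from *MAPRE1* at 118 FPKM through *IQGAP1* at 76.0, *PHLDB2* at 73.3 and *DLG1* at 25.1 FPKM. Below these came *MAPRE2* at 17.8, *CLASP1* at 15.1, *CLASP2* at 10.8, *PHLDB1* at 6.76, *MAPRE3* at 5.28 and *ARHGEF4* at 5.03 FPKM. After anti-*APC* siRNA the order was the same except that *PHLDB2* stood above *IQGAP1*. *MAPRE1* was higher than 93.2% and *ARHGEF4* higher than 23.0% of the 12063 genes with a mean of at least 1 FPKM and reads in both libraries.

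**Figure D1:**
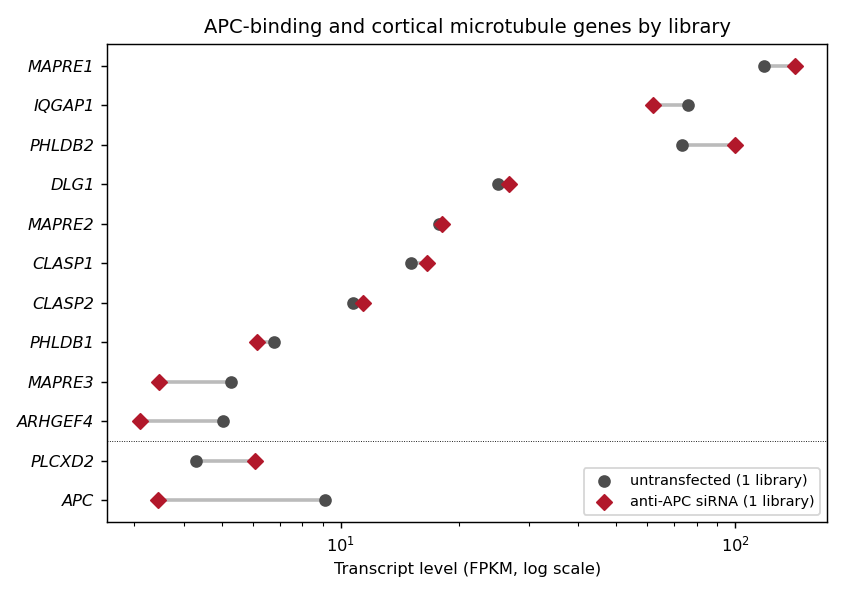
Level of each gene (FPKM, log axis) in the untransfected library (grey circles) and the anti-*APC* siRNA library (red diamonds), 1 library each, with *PLCXD2* and *APC* below the dotted line. *PHLDB2* at 99.8 FPKM passed *IQGAP1* at 62.0 FPKM, whereas the 4 genes of the middle of the range (*DLG1*, *MAPRE2*, *CLASP1*, *CLASP2*) had nearly overlapping points.

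No member was at least 1.5-fold higher with anti-*APC* siRNA and 2 were at least 1.5-fold lower, *ARHGEF4* and *MAPRE3*. Among all 12063 genes, 2.56% were that much higher and 6.61% that much lower. The split of 309 higher and 797 lower genes became 311 and 498 when the trend of the ratios on transcript GC content was subtracted (chosen with the data in view), which is 2.68% higher and 4.3% lower of the genes with a known GC content. At a ratio of at least 5 to 4, 1 member was higher (*PHLDB2*, against 7.17% of all genes) and the same 2 were lower (against 18.4%). No member differed 2-fold, as 0.953% of all genes did upward and 1.37% downward. The median log2 ratio was 0.05 over the 10 members and -0.05 over all genes. Ratios were above 1 in 6 members and below 1 in 4, beside 4990 above and 7073 below among all genes.

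GC content moved with the ratios across the table. In the fifth of genes with the lowest transcript GC content the median log2 ratio was 0.06, and in the fifth with the highest it was -0.20. At least 1.5-fold decreases made up 2.11% of the first group and 13.7% of the second. The 3 members with the most GC-rich transcripts, *PHLDB1* (59.9%), *ARHGEF4* (59.9%) and *MAPRE3* (56.7%), were 3 of the 4 members with ratios below 1. The other 7 had transcripts of 41.8% to 47.6% GC. The part of GC content in these values was not tested beyond the subtraction. The value with the trend subtracted is given below for each member, and for only some of the other genes.

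**Figure D2:**
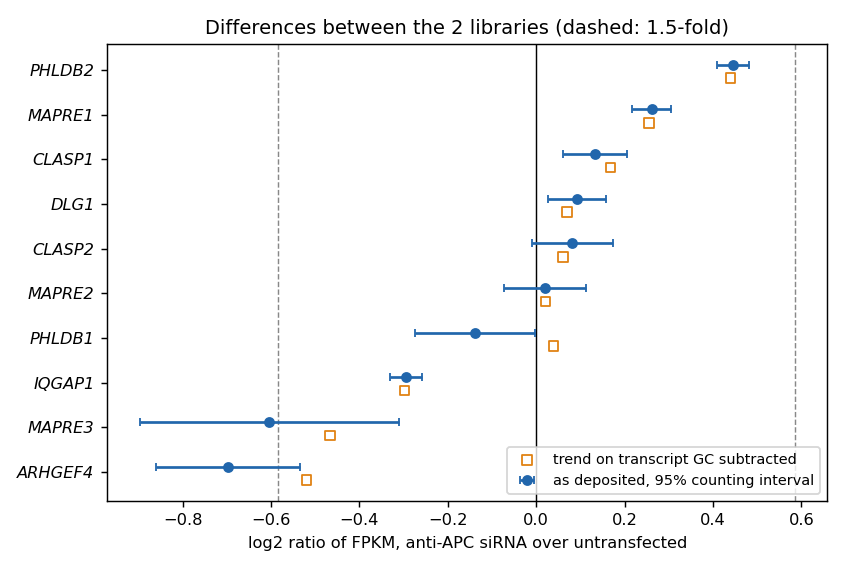
Log2 ratio of FPKM, anti-*APC* siRNA over untransfected, for the 10 members. Blue points carry 95% counting intervals, orange squares show the ratio after the trend on transcript GC content was subtracted, and dashed lines mark 1.5-fold. *PHLDB2* (0.45) and *ARHGEF4* (-0.70) are the extremes, and *PHLDB1* changed sign from -0.14 to 0.04 with the subtraction.

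*PHLDB2* encodes LL5β, a protein with a PH domain for phosphoinositides that anchors CLASP-bound microtubule ends at the basal cortex. It had 73.3 FPKM in untransfected cells and 99.8 FPKM after anti-*APC* siRNA. The anti-*APC* library was 1.36-fold higher, with a counting interval of 1.33 to 1.40 from about 11028 and 13708 reads. Of all 12063 genes, 3.96% had a ratio at least as high. The log2 ratio of 0.45 became 0.44 with the GC trend subtracted and 0.50 with the median of all genes subtracted.

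The table places *PHLDB2* at one locus with *PLCXD2*, a predicted phospholipase of the phosphoinositide-specific type, and both run on the + strand of chromosome 3. On GRCh37 the GENCODE annotation gives *PLCXD2* from 111393523 to 111565294 and *PHLDB2* from 111451344 to 111695364, an overlap of 114 kb. Of the *PHLDB2* exons 322 bases are also annotated as *PLCXD2* exons, 2.62% of its 12309 exon bases and 3.58% of the 8985 of *PLCXD2*. RefSeq lists 4 starts of *PHLDB2*. The first lies inside *PLCXD2* and the second 127 kb further, 12.7 kb beyond the end of *PLCXD2*, with the other two close behind it. The table has 1 value per gene, so use of the first start against the others was not analysed here.

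*PLCXD2* had 4.30 FPKM in untransfected and 6.06 FPKM in anti-*APC* cells, a 1.41-fold difference with a counting interval of 1.29 to 1.54. The neighbour on the same strand thus stood higher by about the same factor. *PHLDB2* was 17.0 times as abundant as *PLCXD2* in untransfected cells and 16.5 times after anti-*APC* siRNA. The difference between their log2 ratios was -0.05, with a counting interval of -0.19 to 0.09. Summed, the 2 genes had 77.6 and 106 FPKM, a ratio of 1.36, and *PHLDB2* made up 94.5% and 94.3% of the sum. How reads of the shared exons were divided was not tested.

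**Figure D3:**
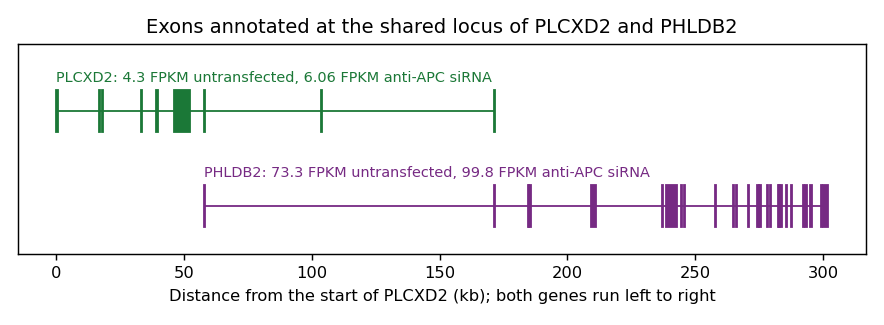
Annotated exons (blocks) of *PLCXD2* (top) and *PHLDB2* (bottom) by distance in kb from the start of *PLCXD2*, both transcribed from left to right. The *PHLDB2* blocks lie mostly to the right of the last *PLCXD2* block, and both genes had higher FPKM in the anti-*APC* library.

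*PHLDB1*, on chromosome 11 from 118477155 to 118528741, encodes the related LL5α. It had 6.76 FPKM in untransfected and 6.14 FPKM in anti-*APC* cells, a ratio of 0.908 with a counting interval of 0.827 to 0.997. With the GC trend subtracted its log2 ratio went from -0.14 to 0.04, so its direction differed between the 2 settings. *PHLDB2* was 10.8 times as abundant as *PHLDB1* in untransfected cells and 16.2 times after anti-*APC* siRNA. The difference between their log2 ratios was 0.58 (counting interval 0.44 to 0.72) and 0.40 with the GC trend subtracted. Of the summed FPKM of the 3 PHLDB genes, *PHLDB2* held 88.9% and then 92.2%.

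*MAPRE1* encodes EB1, which binds growing microtubule ends and recruits APC, CLASPs and other proteins there. It lies on chromosome 20 from 31407760 to 31438211. Its level was 118 FPKM in untransfected and 142 FPKM in anti-*APC* cells, a 1.20-fold difference with a counting interval of 1.16 to 1.24. A ratio at least as high was seen in 10.0% of all genes, and the log2 ratio of 0.26 was 0.25 with the GC trend subtracted. RefSeq lists pseudogene copies of *MAPRE1*, and their share of its reads was not tested.

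*MAPRE2* encodes EB2 and lies on chromosome 18 from 32556892 to 32723434. It had 17.8 and 18.1 FPKM, a log2 ratio of 0.02 with a counting interval of -0.07 to 0.11, so no difference was detectable at this depth. The log2 ratio was also 0.02 with the GC trend subtracted. *MAPRE3* encodes EB3, known best from neurons and muscle, and lies on chromosome 2 from 27193505 to 27250087. It had 5.28 FPKM in untransfected and 3.47 FPKM in anti-*APC* cells, a ratio of 0.658. Its counting interval was wide, 0.537 to 0.806, since the levels correspond to about 248 and 149 reads. With the GC trend subtracted the ratio was 0.724, inside the 1.5-fold limit.

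The proportions of the end-binding genes thus differed between the 2 libraries, with 1 library per condition. *MAPRE1* was 22.4 times as abundant as *MAPRE3* in untransfected cells and 40.8 times after anti-*APC* siRNA. The difference between their log2 ratios was 0.86 (counting interval 0.57 to 1.16) and 0.72 with the GC trend subtracted. The share of *MAPRE1* in the summed FPKM of the 3 genes was 83.7% and then 86.8%. *MAPRE2* held 12.6% and 11.1%, and *MAPRE3* held 3.73% and 2.13%. The sum was 141 FPKM in untransfected and 163 FPKM in anti-*APC* cells, a 1.15-fold difference.

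*CLASP1* and *CLASP2* encode proteins that stabilize microtubules and let shrinking ends grow again. *CLASP1*, on chromosome 2 from 122095352 to 122407052, had 15.1 FPKM in untransfected and 16.5 FPKM in anti-*APC* cells. Its 1.10-fold difference had a counting interval of 1.04 to 1.15. *CLASP2*, on chromosome 3 from 33537737 to 33759848, had 10.8 and 11.4 FPKM, a 1.06-fold difference with a counting interval of 0.993 to 1.13 that includes 1. With the GC trend subtracted the ratios of *CLASP1* and *CLASP2* were 1.12 and 1.04. Their log2 ratios as measured differed by 0.05 (counting interval -0.06 to 0.17), and *CLASP1* held 58.3% of the summed FPKM without and 59.2% with anti-*APC* siRNA.

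The small nuclear RNA gene *RNU4ATAC* lies within *CLASP1* on the opposite strand and shares its locus in the table. It had 9.82 FPKM in untransfected cells and is listed at 0 with anti-*APC* siRNA. Converted with its transcript length of 127 bases, that level gives about 31.1 reads, against about 3053 reads for *CLASP1*. Whether the conversion holds for so short a transcript was not tested, so the 0 is not read as a loss. *LOC100507086*, at the *DLG1* locus, had at most 0.211 FPKM. Of the protein-coding genes found to overlap a member, *PLCXD2* had reads. *TREH*, opposite *PHLDB1*, and *SCARNA4*, opposite *ARHGEF4*, are listed at 0 in both libraries.

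*DLG1*, the human discs large gene, encodes a scaffold of the Scribble polarity complex whose PDZ domains bind the end of APC. It lies on chromosome 3 from 196769431 to 197026201. It had 25.1 FPKM in untransfected and 26.8 FPKM in anti-*APC* cells, a 1.07-fold difference with a counting interval of 1.02 to 1.12, and a 1.05-fold one with the GC trend subtracted. Its paralogs stood lower, *DLG3* at 11.9 and 9.87 FPKM and *DLG5* at 20.1 and 15.7 FPKM. The ratios of *DLG3* and *DLG5* were 0.830 and 0.781, and 0.886 and 0.863 with the GC trend subtracted. As deposited, *DLG1* held 43.2% of the summed FPKM of the 5 DLG genes without and 50.4% with anti-*APC* siRNA. These shares were not computed with the trend subtracted.

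*IQGAP1* encodes a scaffold for the GTPases RAC1 and CDC42 that links APC to actin and to microtubule ends. It lies on chromosome 15 from 90931474 to 91045471. It had 76.0 FPKM in untransfected and 62.0 FPKM in anti-*APC* cells, a ratio of 0.815 with a counting interval of 0.795 to 0.837 from about 13639 and 10152 reads. A ratio at least as low was seen in 20.4% of all genes. *IQGAP1* was the member below 1 whose transcript is not GC-rich (43.4%), and its log2 ratio of -0.29 was -0.30 with the GC trend subtracted.

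*ARHGEF4* encodes ASEF, an exchange factor for RAC1 and CDC42 that APC binding activates. GENCODE places it on chromosome 2 from 131594487 to 131804836, whereas its row in the table begins at 131674224, a later start. The reads and GC content used here are those of its longest coding GENCODE transcript. Whether that transcript matches the row was not tested. *ARHGEF4* had 5.03 FPKM in untransfected and 3.10 FPKM in anti-*APC* cells, a ratio of 0.617 with a counting interval of 0.551 to 0.690 from about 843 and 475 reads. This was the lowest ratio among the members, and 4.24% of all genes had one at least as low. With the GC trend subtracted the ratio was 0.698, no longer 1.5-fold. Its paralog *SPATA13* (ASEF2) had 9.14 FPKM in untransfected and 11.2 FPKM in anti-*APC* cells. The sum of the pair was 14.2 and 14.3 FPKM, and *ARHGEF4* held 35.5% of it without and 21.7% with anti-*APC* siRNA.

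**Figure D4:**
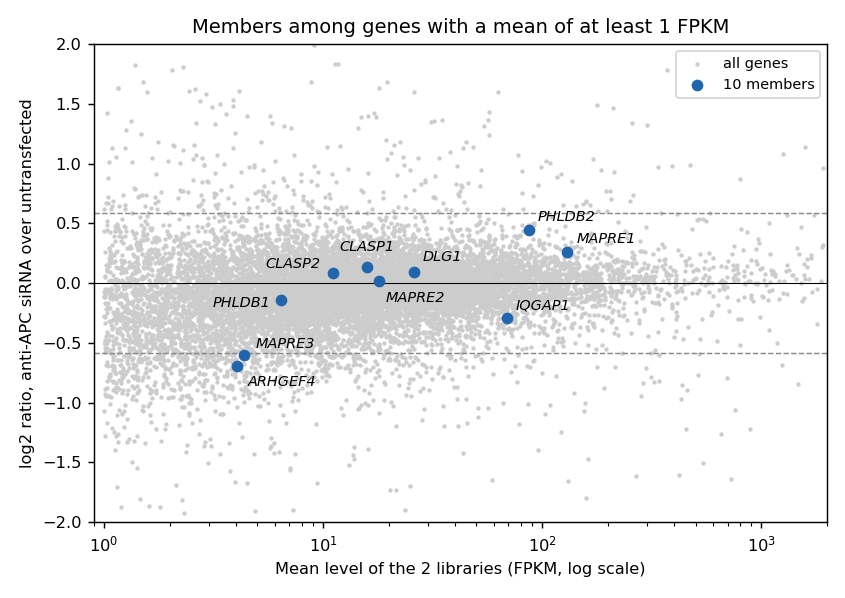
Log2 ratio against the mean level of the 2 libraries (FPKM, log axis) for 11995 of the 12063 genes with a mean of at least 1 FPKM (grey; 68 genes lie outside the axes), with the 10 members in blue and 1.5-fold marked by dashed lines. *ARHGEF4* and *MAPRE3* lie just below the lower line among genes of low level, and the other 8 members lie between the lines.

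The largest ratio among related genes was that of *IQGAP2*, a paralog of *IQGAP1*. It had 0.424 FPKM in untransfected cells and 4.75 FPKM after anti-*APC* siRNA, an 11.2-fold difference. Its log2 ratio was 3.49 (counting interval 3.11 to 3.86), and 3.46 with the GC trend subtracted. Its untransfected level was below 1 FPKM, so it met the limit on the mean only through the anti-*APC* library. It shares its locus in the table with *F2RL2*, which had at most 0.0420 FPKM. *IQGAP3*, the third paralog, had 14.9 and 15.2 FPKM. The share of *IQGAP2* in the summed FPKM of the family was 0.465% without and 5.81% with anti-*APC* siRNA, while that of *IQGAP1* was 83.2% and 75.7%. The sum was 91.3 FPKM in untransfected and 81.9 FPKM in anti-*APC* cells.

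**Figure D5:**
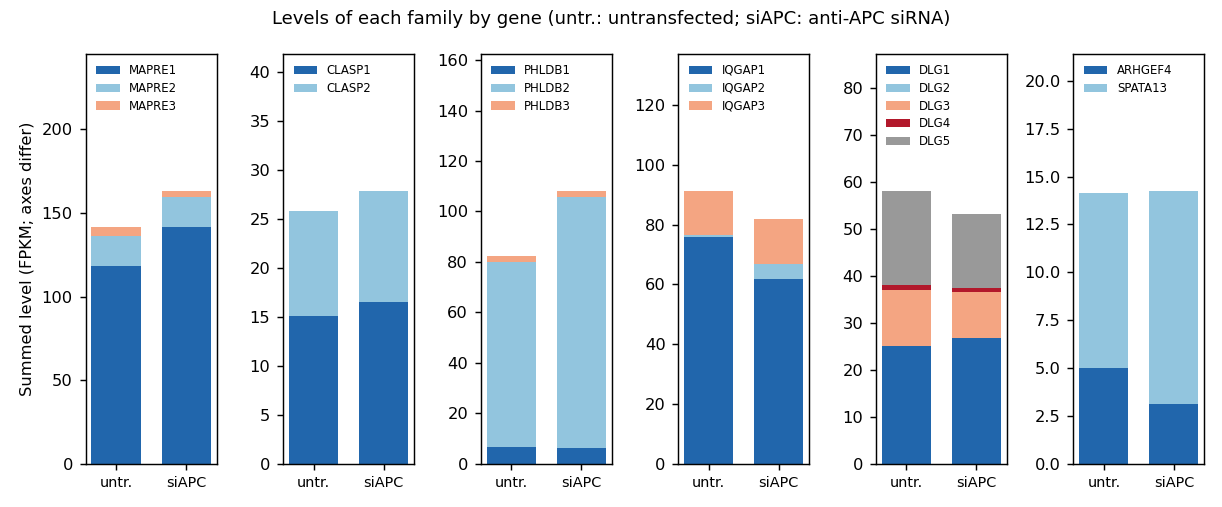
Summed FPKM of 6 families in the untransfected and the anti-*APC* siRNA library, 1 library each, stacked by gene, with a separate axis from 0 for each family. The PHLDB bar is 82.4 FPKM in untransfected and 108 FPKM in anti-*APC* cells, *IQGAP2* goes from 0.424 to 4.75 FPKM, and the *ARHGEF4* and *SPATA13* bar is 14.2 and 14.3 FPKM.

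Other genes of these pathways were taken from 4 lists, of which 79 of 97 genes had a mean of at least 1 FPKM. Among the 79, 2 were at least 1.5-fold higher and 3 at least 1.5-fold lower, against 2.56% and 6.61% of all genes. Their median log2 ratio was 0.01, against -0.05 over all genes. With the GC trend subtracted these medians were 0.08 and 0.01.

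Of 26 other plus-end genes, 1 was at least 1.5-fold higher and none lower, against 2.56% and 6.61% of all genes. Ratios were above 1 in 13 and below 1 in 13, beside 4990 above and 7073 below among all genes. The median log2 ratio was 0.0046, and 0.09 with the GC trend subtracted. The higher gene was *NAV3*, a neuron navigator that associates with growing ends, with 3.60 FPKM in untransfected and 5.44 FPKM in anti-*APC* cells (1.51-fold). Its log2 ratio of 0.60 had a counting interval of 0.47 to 0.72, which spans the 1.5-fold limit. With the GC trend subtracted it was 1.52-fold. The most abundant was the microtubule polymerase gene *CKAP5*, with 87.4 FPKM without and 95.02 FPKM with siRNA. The spectraplakin gene *MACF1*, which crosslinks microtubules and actin, had 19.7 and 27.5 FPKM (1.40-fold), below the limit. *CLIP2* and *CLIP4* had ratios of 0.705 and 0.711, and of 0.826 and 0.701 with the GC trend subtracted.

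Of 13 other cortical anchoring genes, none was at least 1.5-fold higher and 1 was lower, against 2.56% and 6.61% of all genes. Ratios were above 1 in 5 and below 1 in 8, beside 4990 above and 7073 below among all genes. The median log2 ratio was -0.07, and 0.06 with the GC trend subtracted. The lower gene was *KANK2*, whose protein joins the cortical complex to talin at adhesions, with 11.9 FPKM in untransfected and 7.76 FPKM in anti-*APC* cells, a ratio of 0.654 and of 0.726 with the GC trend subtracted. The highest ratio of the list was that of the angiomotin-like gene *AMOTL2*, with 14.7 and 21.4 FPKM (1.46-fold), and it passed the limit at 1.60-fold with the GC trend subtracted. Genes of other proteins of the LL5β complex had smaller differences. *ERC1* (ELKS) had 11.8 and 10.5 FPKM, a ratio of 0.890 with a log2 counting interval of -0.25 to -0.09. *PPFIA1* (liprin-α1) had 23.9 and 24.2 FPKM, a ratio of 1.02 with a log2 interval of -0.05 to 0.09 that includes 0. *PPFIBP1* (liprin-β1) had 22.7 and 24.9 FPKM, a ratio of 1.10 with a log2 interval of 0.06 to 0.20. *KIF21A*, a kinesin that KANK1 recruits to the cortex, had 16.7 and 11.9 FPKM, a ratio of 0.713. The most abundant was *RAB8A*, a GTPase of membrane transport, with 71.1 and 74.5 FPKM. The dystroglycan gene *DAG1* is listed at 0 in both libraries with a failed estimate, as are all 269 genes with that status, so it has no usable value.

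Of 21 other genes on the APC-binding list, *IQGAP2* was at least 1.5-fold higher and none was lower. The shares of all genes were 2.56% and 6.61%. The list also holds paralogs, such as *IQGAP2* and *IQGAP3*, and the GTPase genes *RAC1* and *CDC42*. Binding of APC by each encoded protein was not tested. Ratios were above 1 in 16 and below 1 in 5, whereas over all genes 4990 were above and 7073 below. The median log2 ratio was 0.12, and 0.14 with the GC trend subtracted. The most abundant was the nuclear export receptor gene *XPO1*, with 183 and 187 FPKM. The formin gene *DIAPH1*, which acts with APC and EB1 to stabilize microtubules, had 97.6 and 113 FPKM. The kinesin adaptor gene *KIFAP3*, part of a motor that carries APC toward plus ends, had 9.37 and 10.2 FPKM. Its ratio of 1.09 had a log2 counting interval of -0.004 to 0.25 that includes 0. Of the kinesin genes on the list, *KIF3A* and *KIF3B* had ratios of 0.890 and 0.843, whereas *KIF3C* had 1.30.

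Of 19 other genes of the DLG and Scribble polarity complexes, none was at least 1.5-fold higher and 2 were lower. The shares of all genes were 2.56% and 6.61%. Ratios were above 1 in 6 and below 1 in 13, beside 4990 above and 7073 below among all genes. The median log2 ratio was -0.13, and -0.03 with the GC trend subtracted. *LLGL2*, which encodes a lethal giant larvae protein of the basolateral side, had 26.8 FPKM in untransfected and 17.1 FPKM in anti-*APC* cells, a ratio of 0.637 and of 0.752 with the GC trend subtracted. *LIN7B*, a small PDZ adaptor, had 1.78 and 1.13 FPKM, a log2 ratio of -0.65 with a counting interval of -1.46 to 0.16 that includes 0, and a ratio of 0.733 with the GC trend subtracted. *PRKCZ*, an atypical protein kinase C of the PAR polarity complex, had 16.9 and 24.0 FPKM (1.41-fold), and it passed the limit at 1.61-fold with that trend subtracted. Under that setting this list had *PRKCZ* higher and no gene lower. The most abundant was *DLGAP5*, a spindle protein, with 74.6 and 84.5 FPKM. *MPP7*, which binds DLG1, had 23.7 and 33.9 FPKM (1.43-fold).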

How the data were processed

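RNA of HCT-116 cells was sequenced by the authors as single-read TruSeq libraries, 1 per condition. The submitters' processing notes name Cufflinks, Cuffdiff and the hg19 genome (versions, aligner and annotation are not given in the sources used here). The authors deposited FPKM values for the anti-*APC* and untransfected libraries, named RPKM in the file. The deposited ln fold change, test statistic, p, q and call columns belong to the authors' own comparison and were not used. The paper's methods describe the test as anti-*APC* against scrambled siRNA, whereas the table is labelled as against untreated cells. 1 library per group allows no test.

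Log2 ratios, a 1.5-fold limit and a mean of at least 1 FPKM were applied to the whole table. 134 genes at 0 in 1 library were left out. Depth came from 56 single-transcript genes at the commonest low ratio. Reads are FPKM times the longest coding GENCODE 44 transcript, so counting intervals depend on that annotation. GC and length trends were lowess fits (fraction 0.3), with GC known for 96.1% of genes. Coordinates are GRCh37, 1-based. Named genes are the members, *APC*, genes at their loci, and list genes past 1.5-fold or most abundant; any further gene was picked with its values known. Members and lists were chosen with earlier results of these data known. Alternatives were other folds, filters, pseudocounts and centring. Fold calls after subtraction of a trend were tested on simulated data, with a random covariate in place of GC content. The depth estimate, the approximate reads and the counting intervals were not tested in this way. Python 3.11.15, numpy 2.4.6, pandas 2.3.3, statsmodels 0.14.6 and matplotlib 3.10.9 were used.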

Additional observations from a re-analysis of the deposited data

How the results depend on the processing

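No paired analysis was possible because there is 1 library per group and the labels give no shared replicate numbers, and for the same reason no library could be left out. Each of the 10 members kept the sign of their log2 ratio with a pseudocount of 0.1 or 1 FPKM, with the median of all genes or of genes of at least 30 FPKM subtracted and with the trend on transcript length subtracted. With the trend on GC content subtracted, 9 kept it and *PHLDB1* did not (-0.14 and 0.04). The GC and length settings were chosen after the data were seen.

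With *ARHGEF4* and *MAPRE3* the count of members at least 1.5-fold lower was 2. It was 0 with a pseudocount of 1 FPKM, 0 at a 2-fold limit, 0 with the GC trend subtracted and 1 (*ARHGEF4*) with the median subtracted. At a ratio of 5 to 4, 1 member was higher (*PHLDB2*), against 7.17% of all genes. Over the whole table, 865 genes were higher and 2219 lower at 5 to 4, 115 and 165 at 2-fold, and 1084 and 2078 without the filter on low values. Lower genes numbered 448 with a pseudocount of 1 FPKM and 498 with the GC trend subtracted. Of the other pathway genes, 11 were higher and 9 lower at 5 to 4, 1 and 0 at 2-fold, and 4 (*IQGAP2*, *NAV3*, *AMOTL2* and *PRKCZ*) and 0 with the GC trend subtracted, and 6 were lower without the filter. The members' median log2 ratio was 0.05, 0.05 with the GC trend subtracted and 0.10 with the median subtracted. Depth limits the members of low level most, *MAPRE3* with a counting interval of -0.90 to -0.31.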
